A study of Mus musculus with 35 samples.

Results

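The genes of the lysosome were followed in perigonadal fat of lean, obese and drug-treated mice. The set held 32 genes chosen by symbol, with earlier results of these data known, out of 8251 genes with a symbol on the array. All 32 were measured, by 44 probe sets. Of these, 8 encode cysteine peptidases (7 cathepsins and legumain), 3 encode the aspartic and serine peptidases, 7 the glycosidases, 6 the enzymes and carriers that handle lipids, 3 the phosphatases and a nuclease, and 5 are proteins of the lysosomal membrane. The set is therefore wider than hydrolases: Npc1, Npc2, Psap and the membrane proteins digest nothing themselves. Each gene was read from its brightest probe set over all arrays, and the main cases where others differ are described below.

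Perigonadal adipose tissue of C57BL/6J mice aged 22 weeks was profiled with 35 oligonucleotide arrays (Affymetrix MG-U74Av2), 1 for each sample, in 10 groups. Lean mice were wild type and untreated (4 female and 4 male arrays). The ob/ob mice, untreated, are homozygous for a mutation that removes functional leptin (4 female and 4 male), and Ay/+ mice, untreated, carry 1 copy of the yellow allele, which drives agouti in tissues that do not normally make it (4 female). Diet-induced obese males were wild type mice on diet D12451 (3). Pioglitazone, which activates the nuclear receptor PPAR gamma, was dosed at 10 mg/kg/day over 2 weeks in Ay/+ females (3, of which 1 has no dose in its label), ob/ob females (3) and wild type males on the same diet (4). CL316243, which activates the beta3 adrenergic receptor, was dosed at 3 mg/kg/day over 2 weeks in ob/ob females (2). No vehicle is named for the untreated mice, and the labels do not say whether a sample was 1 animal or a pool, so p-values measure the spread between these samples, which may be technical.

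The lysosome is the acidic compartment in which cells break down proteins, glycans, lipids and nucleic acids taken up from outside or delivered by autophagy. Its enzymes are made in the endoplasmic reticulum, most are tagged with mannose 6-phosphate, and a proton pump in the membrane keeps the lumen acidic. Many lysosomal genes share a promoter element, the CLEAR motif, which is bound by TFEB and its relatives TFE3 and MITF. In fat the compartment is prominent in macrophages, which in obese tissue surround dying adipocytes and take up their lipid. Cathepsins K, L and S can also act outside the cell on matrix proteins.

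Promoter windows of 300 bases (250 before and 50 after the transcription start) were found in a RefSeq table on build GRCm38.p6 for 27 of the 32 genes. They are shown for 4 genes: Ctsk and Ctss, neighbours on chromosome 3, which had the highest log2 fold changes among the cathepsins in ob/ob mice of both sexes, and Ctsd and Lamp1, which are classical lysosomal genes and did not pass the test between obese and lean mice. Capitals mark the CLEAR core GTCACGTG, its E-box CACGTG, the PU.1 element GAGGAAGT of myeloid genes and the M-box TCATGTGA of MITF targets, on either strand. The E-box lies within the CLEAR core.
Ctsk, chr3:95498960-95499259, plus strand: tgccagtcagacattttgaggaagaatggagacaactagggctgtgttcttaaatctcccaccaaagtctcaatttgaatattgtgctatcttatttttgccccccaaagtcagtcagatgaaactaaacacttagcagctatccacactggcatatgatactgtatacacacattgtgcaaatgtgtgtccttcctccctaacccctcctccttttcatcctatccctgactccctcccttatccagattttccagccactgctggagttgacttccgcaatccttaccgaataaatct
Ctss, chr3:95526536-95526835, plus strand: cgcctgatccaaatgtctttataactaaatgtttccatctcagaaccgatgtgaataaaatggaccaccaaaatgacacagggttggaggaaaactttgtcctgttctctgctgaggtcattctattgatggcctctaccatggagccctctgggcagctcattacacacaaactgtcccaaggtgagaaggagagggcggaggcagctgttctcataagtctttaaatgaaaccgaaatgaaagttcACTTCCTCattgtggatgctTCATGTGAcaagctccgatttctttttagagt
Ctsd, chr7:142387778-142388077, minus strand: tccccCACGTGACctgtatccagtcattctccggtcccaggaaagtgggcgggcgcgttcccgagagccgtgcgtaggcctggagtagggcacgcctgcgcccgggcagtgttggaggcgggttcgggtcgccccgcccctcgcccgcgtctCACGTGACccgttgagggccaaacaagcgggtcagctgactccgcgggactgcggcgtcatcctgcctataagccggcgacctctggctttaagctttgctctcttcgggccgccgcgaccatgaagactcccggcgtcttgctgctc
Lamp1, chr8:13158911-13159210, plus strand: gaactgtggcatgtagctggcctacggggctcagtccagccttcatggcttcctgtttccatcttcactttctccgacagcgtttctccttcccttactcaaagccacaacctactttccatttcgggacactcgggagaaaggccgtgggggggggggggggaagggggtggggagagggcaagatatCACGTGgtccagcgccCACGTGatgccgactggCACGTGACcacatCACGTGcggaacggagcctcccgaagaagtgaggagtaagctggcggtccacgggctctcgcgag
The Ctsk window held none of the 4 motifs. The Ctss window held a PU.1 element at -2 and an M-box at 19, counted from the start. The Ctsd window held the CLEAR core at -245 and -98, and the Lamp1 window had it at -28 among 4 E-boxes. Of the 27 genes, 6 (22.2%) held the CLEAR core, namely Ctsa, Ctsd, Gla, Glb1, Lamp1 and Lgmn, against 2.55% of 27025 genes in the table. The E-box was in 8 of them (29.6%, against 8.09% of all genes), the M-box in 5 (18.5%, against 1.15%: Acp5, Ctss, Gla, Ppt1 and Tpp1) and the PU.1 element in 4 (14.8%, against 3.69%: Ctsc, Ctss, Gla and Gusb). A match describes the letters of the window and not a bound site.

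The arrays were of an earlier batch (22 arrays) and a later one (13), told apart by whether the array software recorded a scanner type, and were scanned on 13 days. All ob/ob male arrays were later, all drug-treated females were earlier, and most untreated females were earlier. The mean brightness of an array as deposited ran from 250.2 to 1680.3, as a 2% trimmed mean, and differed between groups. It was 1680.3, 1180.1 and 1335 in pioglitazone-treated ob/ob females and 1260.0, 1467 and 1505 in ob/ob females 1 to 3, but 453 and 508 in the CL316243 arrays. Every later array stood at 250.2 as deposited and every earlier one at 335.9 or more. All arrays were scaled to the same trimmed mean, 250, before any comparison. Doubt attached to 4 arrays: Ay/+ female 1 and ob/ob female 4, with the lowest correlations to their own groups (0.872 and 0.878), pioglitazone-treated Ay/+ female 3, which has no dose and whose 5th percentile of scaled signals was 23.9 (2.14 to 7.26 on the others), and pioglitazone-treated diet-induced obese male 1, whose Gapdh 3' to 5' ratio was 46.9. The agouti gene read 378 to 726 on untreated and 407 to 657 on treated Ay/+ arrays, and 140.0 at most elsewhere. The leptin probe set does not test for the ob mutation. Adipoq, the adipocyte hormone adiponectin, read between 4843 and 21784 on all arrays.

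Values below are scaled signals per array, in the order of the replicate numbers. A fold change is a difference of group means of log2(signal + 23), so changes of dim genes are understated, and calls were made at an adjusted p under 0.05 from a limma fit to all 35 arrays, with Benjamini-Hochberg adjustment over 12422 probe sets. Summed over the 32 members, the signal was 25928 to 37671 in lean, 42787 to 48154 in Ay/+ and 52238 to 61178 in ob/ob females. In males it was 37813 to 42223 in lean, 55841 to 60264 in diet-induced obese and 58563 to 76544 in ob/ob mice. The ranges of lean and untreated obese arrays of the same sex did not overlap. In a tissue, fewer cells of a type and less RNA per cell cannot be told apart.

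**Figure D1:**
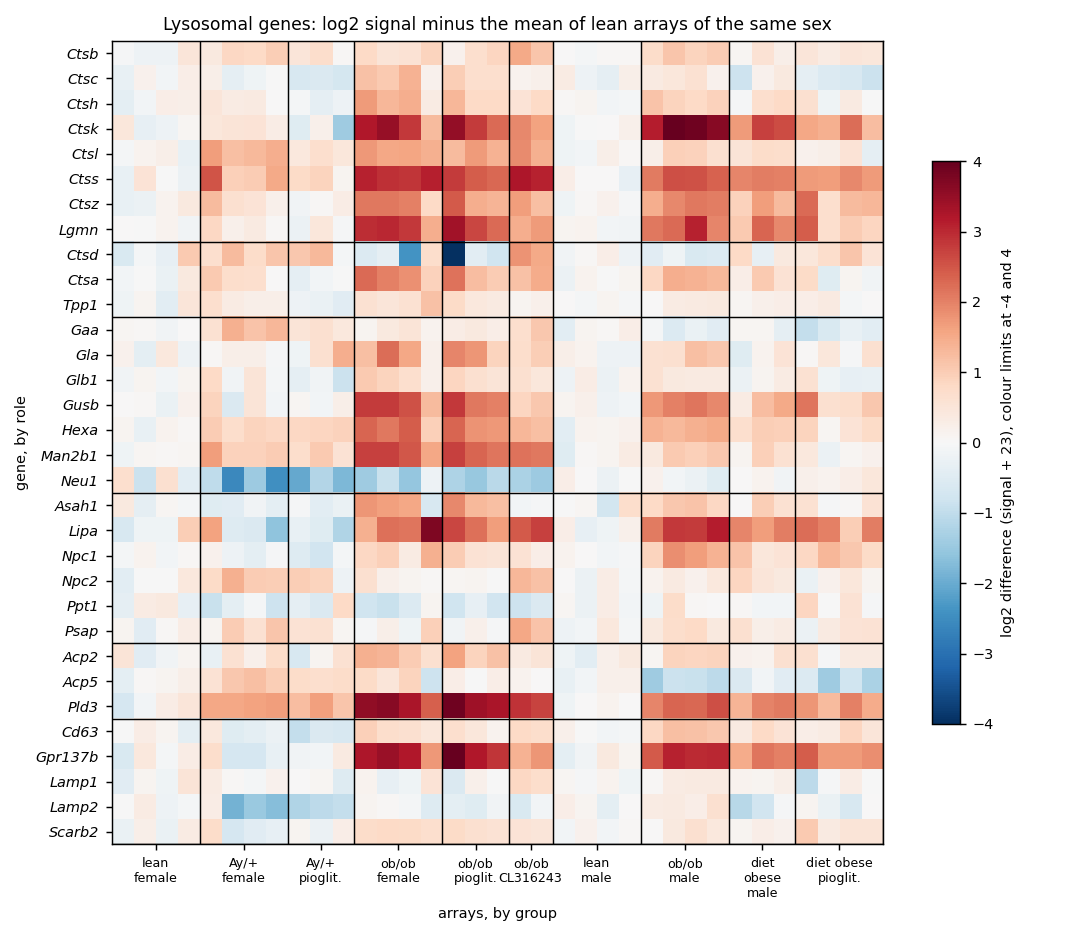
Difference of log2(signal + 23) from the mean of the lean arrays of the same sex, for the 32 genes (rows, ordered by role) on the 35 arrays (columns, by group), red higher and blue lower, with colours limited at -4 and 4. Ctsk, Ctss, Lgmn, Lipa, Pld3 and Gpr137b form the darkest red rows in ob/ob females and males, and Neu1 and Lamp2 are blue in Ay/+ females, except Lamp2 on Ay/+ array 1.

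Leptin deficiency in females (4 ob/ob and 4 lean arrays) went with higher levels of most of the chosen lysosomal genes. In this comparison 23 of 32 members rose and 1 fell, where 10.3% of all probe sets were called higher and 14.0% lower. The median log2 fold change of the members was 1.01, beside -0.18 for all probe sets. Lean arrays 1 to 3 were scanned on day 3 and ob/ob arrays 1 to 3 on day 2, so genotype and day cannot be told apart there. Array 4 of each group shared a scan day. All 8 cysteine peptidases rose, as did 5 of 7 glycosidases, 3 of 6 lipid genes, 2 of 3 serine and aspartic peptidases, 2 of 3 phosphatases and nuclease, and 3 of 5 membrane proteins.

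Among the proteases, Ctss, the endopeptidase that cuts the invariant chain of MHC class II, read 601, 1107, 745 and 632 in lean and 6461, 5783, 5591 and 6606 in ob/ob females. Every ob/ob array lay far above every lean array, and the log2 fold change was 2.99 (95% interval 2.49 to 3.48, adjusted p = 6.79e-11). Ctsk, the collagen-cleaving cathepsin best known from osteoclasts, read 311, 174, 191 and 237 in lean and 2249.5, 2704, 1711 and 569 in ob/ob females. The groups did not overlap, although ob/ob array 4 lay far below the other 3, and the log2 fold change was 2.69 (95% interval 1.99 to 3.39, adjusted p = 6.67e-07). Lgmn, the asparaginyl endopeptidase legumain, which processes other cathepsins, rose by 2.56 on the log2 scale (adjusted p = 7.88e-07). The rest of the cysteine cathepsins rose less, from 0.69 for Ctsb, an abundant broad-specificity protease, to 1.76 for the carboxypeptidase Ctsz. Ctsa, the serine carboxypeptidase that also protects Neu1 and Glb1, rose by 1.76 on the log2 scale (adjusted p = 1.55e-05). The aspartic protease Ctsd did not pass the test: it read 1563, 2269.8, 1895 and 4993 in lean and 1645, 1856, 446 and 3953 in ob/ob females, with the highest value of each group on its only later array.

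The highest fold change belonged to Pld3, an exonuclease of single-stranded nucleic acids in lysosomes. It read 74.3, 119, 165 and 195 in lean and 1785, 1912, 1454 and 788 in ob/ob females, groups that lay well apart, and the log2 fold change was 3.21 (95% interval 2.72 to 3.70, adjusted p = 1e-11), or 9.28-fold. Gpr137b, a lysosomal integral membrane protein, read 25.7, 76.0, 46.9 and 68.9 in lean and 686, 801, 658 and 227 in ob/ob females. Again ob/ob array 4 was the lowest of its group and above all lean arrays, with a log2 fold change of 2.91 (95% interval 2.25 to 3.57, adjusted p = 5.09e-08). Lipa, the acid lipase that splits cholesteryl esters and triglycerides in the lysosome, rose by 2.38 on the log2 scale (adjusted p = 0.000226), and here ob/ob array 4 was the highest, at 2407 beside 463 to 817 on the others. Man2b1, the lysosomal alpha-mannosidase, and Gusb, the beta-glucuronidase, had log2 fold changes of 2.37, adjusted p = 6.1e-09, and 2.34, adjusted p = 1.96e-06. The other 15 members that rose had log2 fold changes from 0.68, for the tetraspanin Cd63, to 1.96, for Hexa, the alpha subunit of beta-hexosaminidase.

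Neu1, the lysosomal sialidase, was the member that fell. It read 343, 102, 331 and 146 in lean and 62.1, 99.7, 55.0 and 174 in ob/ob females, ranges that overlap through lean arrays 2 and 4 and ob/ob array 4. The log2 fold change was -1.02 (95% interval -1.69 to -0.35, adjusted p = 0.023). The 8 members that were not called were Ctsd, Gaa, Lamp1, Lamp2, Npc2, Ppt1, Psap and Acp5, with log2 fold changes from -0.65 to 0.32. Ppt1, the palmitoyl-protein thioesterase, was dim on all arrays, at 73.3 or less.

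Macrophage markers moved in the same direction. Of 18 measured markers (20 were listed), 13 rose and 0 fell in ob/ob females, and their summed signal was 3856 to 7848 on lean and 17794 to 28378 on ob/ob arrays. On the log2 scale Cd68 rose by 3.30 and Adgre1, the gene of F4/80, by 3.43. Clec4d, Fcer1g, Fcgr3, Itgam, Msr1 and Adgre1 each read under 23, the pseudocount, on at least 1 array of the series, and none was at 0. Their part in the lysosomal result was not tested. The osteoclast marker Calcr, the calcitonin receptor, read 31.1 or less on every array. Of 3 measured osteoclast markers only Nfatc1, a transcription factor also used by other cells, rose in ob/ob females (0.74). On later arrays only, which leaves 1 lean and 1 ob/ob array, assumed to vary like the other groups, 4 members were called. Without the 4 doubted arrays 26 were called, and with scan day as a random block 18.

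**Figure D2:**
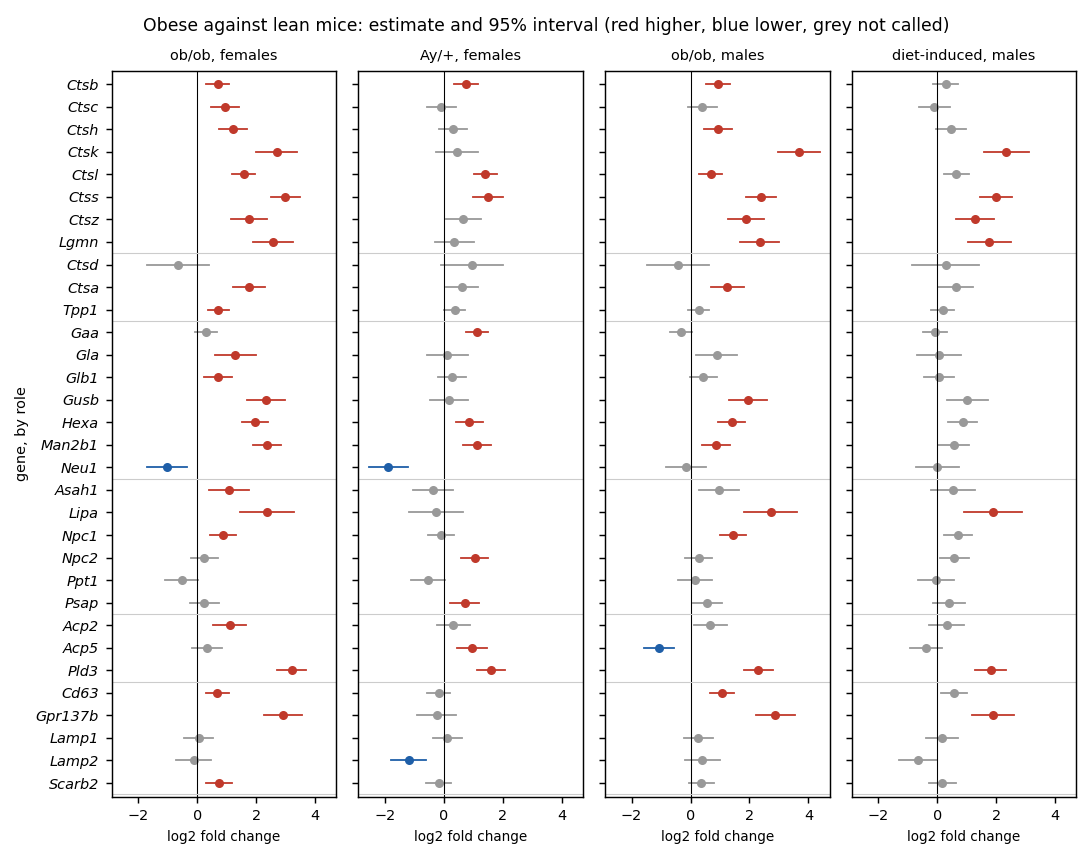
Log2 fold change of each of the 32 genes with its 95% interval from the limma fit, in 4 panels: ob/ob against lean females, Ay/+ against lean females, ob/ob against lean males and diet-induced obese against lean males. Red points were called higher (23, 10, 16 and 7), blue points lower (1, 2, 1 and 0) and grey points were not called.

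Obesity from the yellow allele in females went with higher levels of Pld3, Ctss, Ctsl, Gaa and further members. In Ay/+ against lean females (n = 4 and 4) 10 members rose, 2 fell and 20 were not called, where 6.26% of all probe sets were called higher and 11.5% lower, so the share of members that fell (6.25%) lay below that of all probe sets. The median was 0.34 for the members and -0.063 for all probe sets. Only Ay/+ array 1 and lean array 4 shared a scan day, so for the other arrays genotype and day cannot be told apart. The risers were 3 cysteine peptidases (Ctss, Ctsl and Ctsb), 3 glycosidases (Gaa, Man2b1 and Hexa), the lipid genes Npc2 and Psap, and Pld3 and Acp5. Ctsb was called by its brightest probe set alone, and its others gave -0.37, 0.41 and -0.16.

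Pld3 read 74.3, 119, 165 and 195 in lean and 428, 429, 448 and 473 in Ay/+ females. The 4 Ay/+ arrays lay close together and above all lean arrays, with a log2 fold change of 1.60 (95% interval 1.11 to 2.09, adjusted p = 2.14e-05). Ctss read 4368, 1476, 1544 and 2182 in Ay/+ females, all above the lean arrays, with array 1 the highest, and its log2 fold change was 1.50 (95% interval 1.01 to 2.00, adjusted p = 6.23e-05). Ctsl, an endopeptidase of broad specificity, read 1087, 1246, 1353 and 916 in lean and 3646, 2634, 2849.8 and 3161 in Ay/+ females, without overlap (log2 fold change 1.40, 95% interval 1.01 to 1.79, adjusted p = 5.59e-06). Gaa, the acid alpha-glucosidase that degrades glycogen, read 910.1, 889, 778 and 859 in lean and 1332, 2347, 1924 and 2178 in Ay/+ females. These groups too did not overlap, and the log2 fold change was 1.13 (95% interval 0.76 to 1.50, adjusted p = 5.68e-05). Man2b1 (1.13), Npc2, the soluble cholesterol carrier (1.04), Acp5, tartrate-resistant acid phosphatase (0.96), and Hexa (0.87) followed in log2 fold change, with adjusted p from 0.0012 to 0.00706.

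The members that fell in Ay/+ females were Neu1 and Lamp2. Neu1 read 89.0, 15.0, 60.1 and 18.9 in Ay/+ females, all below the lean arrays, and its log2 fold change was -1.88 (95% interval -2.55 to -1.21, adjusted p = 0.000161). Lamp2, a membrane glycoprotein needed for autophagosome fusion, read 1001, 1277, 883 and 972 in lean and 1262, 258, 353 and 299 in Ay/+ females. Arrays 2 to 4 of the Ay/+ group lay below every lean array, while array 1, the later and doubted one, was within the lean range. The log2 fold change was -1.19 (95% interval -1.79 to -0.60, adjusted p = 0.00431), and the other probe set of Lamp2 gave -0.10, adjusted p = 0.846. Among macrophage markers 8 of 18 rose and 0 fell, and their summed signal was 9126 to 13803 in Ay/+ females. Their part in the result was not tested. On later arrays only (1 against 1, with the spread taken from the other groups) 2 members were called, and without the doubted arrays 14.

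Set directly against each other, ob/ob females were higher than Ay/+ females (n = 4 and 4) in 20 members and lower in 3, where 11.7% of all probe sets were called higher and 9.93% lower. The median was 0.95 for the members and -0.10 for all probe sets. Only Ay/+ array 1 and ob/ob array 4 shared a scan day, so for the other arrays genotype and day cannot be told apart. Gpr137b read 97.2, 23.5, 23.8 and 38.3 in Ay/+ and 686, 801, 658 and 227 in ob/ob females, with no overlap (log2 difference 3.15, 95% interval 2.49 to 3.81, adjusted p = 9.62e-08). Lipa read 533, 105, 98.5 and 36.2 in Ay/+ and 463, 817, 771 and 2407 in ob/ob females, where Ay/+ array 1 lay within the ob/ob range (log2 difference 2.65, 95% interval 1.74 to 3.56, adjusted p = 0.00014). Ctsk read 310.1, 327, 336 and 280.2 in Ay/+ females, below the ob/ob values given above. Lgmn read 328, 205, 232 and 184 in Ay/+ and 1536, 1578, 1384 and 528 in ob/ob females. Neither gene overlapped between the genotypes, and the log2 differences were 2.24, adjusted p = 3.83e-05 for Ctsk, and 2.21, adjusted p = 3.34e-05 for Lgmn. Next came Gusb (2.16), Pld3 (1.62), Ctss (1.49) and Asah1, the acid ceramidase (1.45).

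Higher in Ay/+ than in ob/ob females were Ctsd, Gaa and Npc2. Ctsd read 3862, 5863, 4000.3 and 5227 in Ay/+ and 1645, 1856, 446 and 3953 in ob/ob females, so the later ob/ob array overlapped with the Ay/+ arrays and the 3 earlier ones did not (log2 difference -1.59, 95% interval -2.64 to -0.54, adjusted p = 0.026). Gaa read 935, 1143, 1235 and 943 in ob/ob females, all below the Ay/+ arrays (log2 difference -0.84, 95% interval -1.21 to -0.47, adjusted p = 0.0017). Npc2 read 5140.2, 8091, 6140.3 and 6056 in Ay/+ and 4719.7, 3500.2, 3265 and 3108 in ob/ob females, also without overlap (log2 difference -0.80, 95% interval -1.26 to -0.34, adjusted p = 0.012). With the brightness of the array as a covariate, added after the data were seen, Ctsd was no longer called (-0.97, adjusted p = 0.185), while Gaa and Npc2 were. Macrophage markers were higher in ob/ob than in Ay/+ females in 14 of 18 cases and lower in 0, and their part was not tested. The later arrays, 1 of each genotype with the spread again taken from other groups, gave 1 call, and there the log2 difference of Ctsd was 0.0337.

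In males ob/ob mice were compared with lean mice (n = 4 and 4). Here 16 members rose and 1 fell, where 5.62% of all probe sets were called higher and 4.96% lower, and the median was 0.88 for the members and 0.055 for all probe sets. By role, 7 of 8 cysteine peptidases rose, 3 of 7 glycosidases, 2 of 6 lipid genes, 2 of 5 membrane proteins, Ctsa and Pld3. Ctsk read 135, 151, 154 and 179.6 in lean and 1557, 2849, 2585 and 2212 in ob/ob males. The groups did not overlap, and the log2 fold change was 3.68 (95% interval 2.98 to 4.38, adjusted p = 1.14e-09), or 12.8-fold. Gpr137b read 41.7, 53.7, 88.6 and 68.0 in lean and 439, 682, 645 and 659.7 in ob/ob males. Lipa read 272, 173, 197 and 259.9 in lean and 1021, 1724, 1683 and 2119.8 in ob/ob males. Neither overlapped, with log2 fold changes of 2.88, adjusted p = 5.09e-08 for Gpr137b, and 2.71, adjusted p = 4.18e-05 for Lipa. Ctss read 2059, 1747, 1735 and 1366 in lean and 7326, 10329, 10031 and 8801 in ob/ob males, all ob/ob arrays above all lean ones (log2 fold change 2.39, 95% interval 1.89 to 2.88, adjusted p = 7.44e-09). Lgmn (2.34), Pld3 (2.30), Gusb (1.96) and Ctsz (1.88) followed in log2 fold change. Acp5 fell: it read 1311, 1483, 1857 and 1871 in lean and 589, 871, 859 and 761 in ob/ob males, without overlap, and the log2 fold change was -1.06 (95% interval -1.57 to -0.55, adjusted p = 0.00351).

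The comparisons of ob/ob with lean mice in females and in males share no array, but both take their spread from the same fit. All 16 members that rose in males were among the 23 that rose in females. That is 100% of the male and 69.6% of the female list, where 71.9% of all members rose in females. The overlap of calls over all probe sets was not counted. Acp2, Asah1, Ctsc, Gla, Glb1, Scarb2 and Tpp1 were called in females and not in males, which does not show a difference between the sexes. Macrophage markers rose in 16 of 18 cases and fell in 0, and their summed signal was 7633 to 9873 in lean and 27612 to 42728 in ob/ob males. Adipocyte markers fell in 6 of 10 cases, and their summed signal was 35981 to 43608 in lean and 16944 to 26219.7 in ob/ob males. The part of either in the lysosomal result was not tested. All ob/ob male arrays were later and no scan day held both groups, but the 2 lean male arrays that were later gave the comparison within that batch: 17 members were called there.

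The members with smaller or no called changes were compared by their group means (mean ± SD over arrays). Lamp1, an abundant membrane glycoprotein of lysosomes, read 5156 ± 1490.1 in lean and 5315 ± 1485 in ob/ob females, and 5813 ± 506 in lean and 7007 ± 718 in ob/ob males. The tetraspanin Cd63 read 2509 ± 474 and 4017 ± 567 in lean and ob/ob females, and 2900.2 ± 293 and 6145 ± 714 in lean and ob/ob males. Of the pair only Cd63 was called, in both sexes. Scarb2, the receptor that carries glucocerebrosidase to lysosomes, read 435 ± 99.8 in lean and 725 ± 25.8 in ob/ob females (log2 fold change 0.73, 95% interval 0.31 to 1.16, adjusted p = 0.0112). Npc1, the membrane protein that exports cholesterol together with Npc2, read 376 ± 30.6 in lean and 736 ± 232 in ob/ob females (log2 fold change 0.88, 95% interval 0.44 to 1.32, adjusted p = 0.00355). Both were called in females, as were the beta-galactosidase Glb1 (0.70, adjusted p = 0.0222), the alpha-galactosidase Gla (1.30, adjusted p = 0.00504) and the acid phosphatase Acp2 (1.10, adjusted p = 0.00352). Gla was dim, at 135 or less on every array. In males the log2 fold changes of the same 5 genes were 0.37, adjusted p = 0.365, for Scarb2, 1.45, adjusted p = 9.05e-06, for Npc1, which rose, 0.44, adjusted p = 0.289, for Glb1, 0.89, adjusted p = 0.0953, for Gla, and 0.67, adjusted p = 0.129, for Acp2.

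Acp5, Ctsl and Man2b1 differed between the sexes in the effect of ob/ob, which was lower in males for these 3 members and higher for 0, where 2.84% of all probe sets were called in each direction. Man2b1 had log2 fold changes of 2.37 in females and 0.87 in males (difference -1.50, 95% interval -2.18 to -0.82, adjusted p = 0.00643). Acp5 read 699, 957, 997 and 1088 in lean and 1579, 1306, 1713 and 504 in ob/ob females. It had log2 fold changes of 0.32 in females and -1.06 in males (difference -1.38, 95% interval -2.10 to -0.66, adjusted p = 0.0172), and Ctsl of 1.58 and 0.68 (difference -0.90, 95% interval -1.45 to -0.34, adjusted p = 0.0448). In each of these genes the lean sexes differed too. Man2b1 read 328, 397, 387 and 399 in lean females and 838, 1222, 1262 and 1499 in lean males, and 2651, 2611, 2219 and 1137 and 1566, 2444, 2328 and 2537 in ob/ob females and males. The lean groups did not overlap and the ob/ob groups did. On later arrays, the batch of all ob/ob males, the Acp5 difference was 0.22 (adjusted p = 0.862), the opposite direction, from 1 lean and 1 ob/ob female array. The Man2b1 difference turned to 1.27 (adjusted p = 0.118) with its dimmer probe set. With brightness as a covariate Acp5 (-1.01, adjusted p = 0.0619) and Ctsl (-0.75, adjusted p = 0.1) were not called and Man2b1 was. The count was 7 without the doubted arrays, 5 without ob/ob female 4, and 1 with scan day as a block, with brightness as a covariate (added after the data were seen), on later arrays, or without lean female 1, ob/ob female 1 or ob/ob female 3.

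Lean males stood above lean females (n = 4 and 4) in 9 members and below in 0, where 5.22% of all probe sets were called higher and 10.5% lower. The median was 0.41 for the members and -0.20 for all probe sets, and quantile normalization, which moved the latter by 0.19 here, by -0.19 in the difference between the sexes and by 0.13 in ob/ob against lean females, moved it by under 0.1 elsewhere. Man2b1 (1.59), Ctsl (1.29), Ctss (1.17), Pld3 (1.03), Hexa (0.82), Ctsa (0.81), Acp5 (0.79) and Ctsh, an aminopeptidase (0.71), led in log2 difference, with adjusted p from 3.06e-05 to 0.0412. The dimmer probe set of Hexa was called lower in males (-1.20, adjusted p = 0.0121), and that of Man2b1 gave -0.98, adjusted p = 0.0536. Ctsl read 1087, 1246, 1353 and 916 in females and 2511, 2615, 3299 and 2893 in males, and every male array was above every female one. Macrophage markers were higher in males in 7 of 18 cases, and their part was not tested. Only lean female 4 and lean male 1 shared a scan day, so for the other arrays sex and day cannot be told apart. The count was 5 with scan day as a block and without lean female 1 or lean male 4, 2 on later arrays and 16 without the doubted arrays.

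Obesity from diet D12451 in wild type males went with higher levels of 4 cysteine peptidases, a lipase, a nuclease and a membrane protein. Compared with lean males (n = 4), 7 members rose and 0 fell in these mice (n = 3), where 1.22% of all probe sets were called higher and 0.628% lower, and 15 of the 32 had an unadjusted p under 0.05. The median was 0.50 for the members and 0.029 for all probe sets. Ctsk read 135, 151, 154 and 179.6 in lean and 556, 1145 and 1058 in obese males (log2 fold change 2.35, 95% interval 1.59 to 3.10, adjusted p = 0.000129). Ctss read 6696, 7089 and 6926 in obese males, 3 values close together and above every lean male array (log2 fold change 2.00, 95% interval 1.46 to 2.53, adjusted p = 8.86e-06). Lipa read 922, 759 and 996 and Gpr137b 212, 349.8 and 320.1 in obese males. Both lay above all lean male arrays, with log2 fold changes of 1.89, adjusted p = 0.031 for Lipa, and 1.88, adjusted p = 0.00117 for Gpr137b. Pld3 (1.81, adjusted p = 3.47e-05), Lgmn (1.77, adjusted p = 0.0031) and Ctsz (1.29, adjusted p = 0.0228) rose as well. The 4 cysteine peptidases were Ctsk, Ctss, Lgmn and Ctsz, and 0 of 7 glycosidases were called.

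All 7 members that rose on the diet were among the 23 that rose in ob/ob females, a comparison with no array in common. That is 100% of the shorter and 30.4% of the longer list, where 71.9% of all members rose in ob/ob females. The overlap over all probe sets was not counted. Macrophage markers rose in 9 of 18 cases, with a summed signal of 21030.1 to 27374 in obese males, and their part was not tested. Without diet-induced obese array 2, 4 members were called. All 7 were also among the 16 that rose in ob/ob males, but both comparisons use the same lean male arrays, so these lists are not independent. The plot by array shows these genes without Ctsz.

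**Figure D3:**
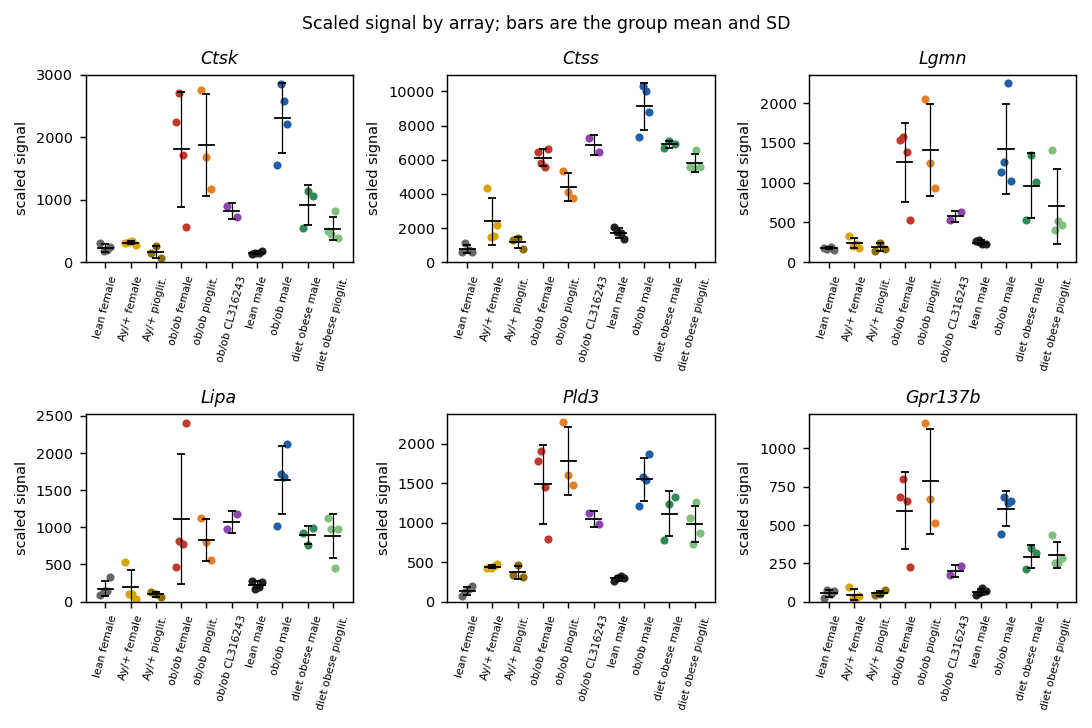
Scaled signal of Ctsk, Ctss, Lgmn, Lipa, Pld3 and Gpr137b on each array (points), by group, with group means and SDs (bars). All 6 genes are above the lean males in every ob/ob and diet-induced obese male array, and in ob/ob females array 4 is the lowest point except for Ctss and Lipa, where it is the highest.

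Pioglitazone was compared with no treatment in 3 kinds of obese mice. In Ay/+ females (n = 3 and 4) 0 members rose and 2 fell, where 2.13% of all probe sets were called higher and 0.910% lower, and 10 members had an unadjusted p under 0.05. Only untreated array 3 and treated array 3, which has no dose, shared a scan day. For the other arrays treatment and day cannot be told apart. Ctsl read 3646, 2634, 2849.8 and 3161 untreated and 1529.8, 1832 and 1563 treated, without overlap (log2 fold change -0.89, 95% interval -1.31 to -0.47, adjusted p = 0.0109). Tpp1, the tripeptidyl peptidase, read 2484, 1949, 1841 and 1857 untreated and 1347, 1295 and 1130.1 treated, also without overlap (log2 fold change -0.68, 95% interval -1.07 to -0.28, adjusted p = 0.0483). For all 8 cysteine peptidases the estimate was negative, from -1.02 for Ctsk to -0.30 for Lgmn, but only Ctsl passed the test. Ctsk read 310.1, 327, 336 and 280.2 untreated and 153, 258 and 69.0 treated (adjusted p = 0.149). The lowest of these values belonged to the treated array without a dose, and without that array 0 members were called. The count was 4 without ob/ob female 4 and 5 on earlier arrays only. Tpp1 lay close to the threshold, with adjusted p from 0.0211 to 0.182 when 1 array of any group was left out. The count became 1 without any 1 of 21 arrays: lean female 1, Ay/+ female 4, treated Ay/+ 1 or 2, ob/ob female 1 or 3, pioglitazone-treated ob/ob 2 or 3, either CL316243 array, any lean male, ob/ob male 2, 3 or 4, diet-induced obese male 2 or 3, or treated diet-induced obese male 2 or 4. Macrophage markers fell in 2 of 18 cases, with a summed signal of 5876 to 7639.6 on treated beside 9126 to 13803 on untreated arrays, and their part was not tested.

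In ob/ob females (n = 3 and 4) pioglitazone moved 0 members past the test in limma, and 0 had an unadjusted p under 0.05, where 0.733% of all probe sets were called higher and 0.330% lower. The 95% intervals of the 32 members lay between -2.25 and 1.15. Ctsk read 2759.7, 1684 and 1169 on treated arrays and Ctss 5316, 4096 and 3792. The treated and untreated ob/ob female arrays shared no scan day, so treatment and day cannot be told apart. The Ctsk values overlapped with those of untreated ob/ob females, and the Ctss values all lay below them (log2 fold change -0.48, 95% interval -1.02 to 0.052, adjusted p = 0.822). In diet-induced obese males (n = 4 and 3) 0 members were called and 3 had an unadjusted p under 0.05, where 0.757% of all probe sets were called higher and 0.660% lower. Only untreated array 2 and treated array 3 shared a scan day, so for the other arrays treatment and day cannot be told apart. The 95% intervals lay between -1.49 and 1.55. Ctsk read 500.2, 451, 813 and 395 on treated and 556, 1145 and 1058 on untreated arrays, which overlap (log2 fold change -0.73, 95% interval -1.49 to 0.023, adjusted p = 0.514). Without the 4 doubted arrays 1 member was called in this comparison. Macrophage markers gave 0 calls in limma in either comparison (1 of 18 in ob/ob and 3 in diet-induced obese mice had an unadjusted p under 0.05). The difference in response between ob/ob and Ay/+ females was tested directly: 0 members were called and 3 had an unadjusted p under 0.05, where 0.0161% of all probe sets were called higher and 0.00805% lower.

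**Figure D4:**
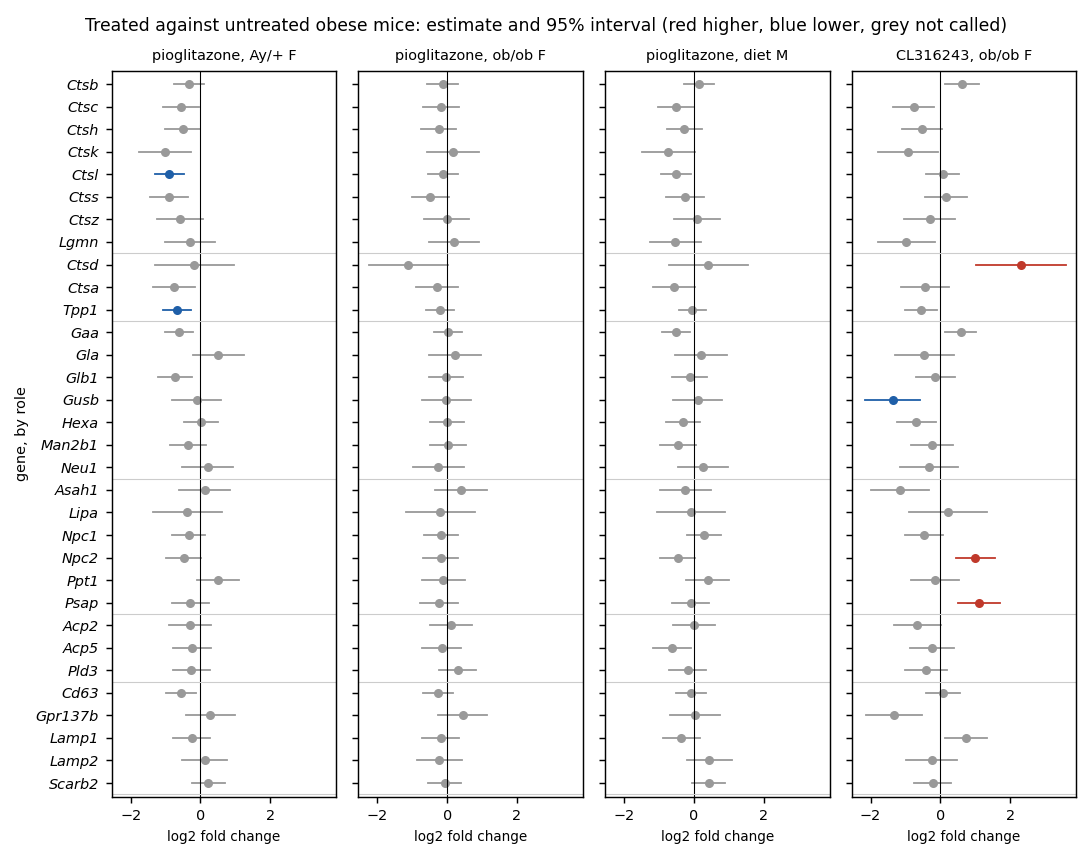
Log2 fold change of each of the 32 genes with its 95% interval, in 4 panels: pioglitazone in Ay/+ females, in ob/ob females and in diet-induced obese males, and CL316243 in ob/ob females, each against untreated mice of the same kind. Called points are Ctsl and Tpp1 (lower, Ay/+), Ctsd, Npc2 and Psap (higher, CL316243) and Gusb (lower, CL316243), and the other intervals are grey.

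CL316243 in ob/ob females (n = 2, against 4 untreated) went with higher levels of Ctsd, Psap and Npc2 and lower levels of Gusb, so 3 members rose and 1 fell, where 1.55% of all probe sets were called higher and 2.18% lower. Most estimates were negative, 22 of 32, and 14 members had an unadjusted p under 0.05. The median was -0.28 for the members and -0.0019 for all probe sets. Ctsd read 1645, 1856, 446 and 3953 untreated and 8511 and 6985 with CL316243, above every untreated array (log2 fold change 2.31, 95% interval 1.03 to 3.60, adjusted p = 0.0368). Psap, the precursor of the saposins that assist the breakdown of sphingolipids, read 2614, 3176, 2405 and 5221 untreated and 7985 and 5988 treated (log2 fold change 1.11, 95% interval 0.50 to 1.71, adjusted p = 0.0326). Npc2 read 4719.7, 3500.2, 3265 and 3108 untreated and 7642 and 6838 treated (log2 fold change 1.00, 95% interval 0.44 to 1.57, adjusted p = 0.0379). In both genes the treated arrays lay above all untreated ones. Gusb read 1121, 1123, 949 and 373 untreated and 279.8 and 326 treated, below every untreated array (log2 fold change -1.37, 95% interval -2.17 to -0.58, adjusted p = 0.0427).

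These calls moved with the arrays included. With scan day as a block 0 members were called, and with quantile normalization 1. Without ob/ob female 4 the count was 12 (4 higher and 8 lower), and on earlier arrays only or without the 4 doubted arrays 14. It was 0 without ob/ob female 2 or 3 or without either CL316243 array, and 1 without ob/ob female 1. No scan day held both groups, so treatment and scan day cannot be told apart. The lowest Ctsd values lay on bright arrays as deposited: 446 on ob/ob female 3 and 124 on pioglitazone-treated ob/ob female 1, the brightest array. On ob/ob female 2, at a trimmed mean of 1467, Ctsd read 1856. On the ob/ob male arrays, which were all later, it read 2018, 2448, 1813 and 1873. Every later array stood at a trimmed mean of 250.2 as deposited, so brightness could not be compared among them. A brightness covariate therefore also separates the batches. With the brightness of the array as a covariate, an alternative added after the data were seen, Ctsd (1.91, adjusted p = 0.0649) and Gusb (-1.32, adjusted p = 0.0594) were no longer called. Psap (1.02, adjusted p = 0.0494) and Npc2 (0.997, adjusted p = 0.0446) remained called. In the main fit the dimmest probe set of Psap went the other way (-2.74, adjusted p = 0.0048), and its second was not called.

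**Figure D5:**
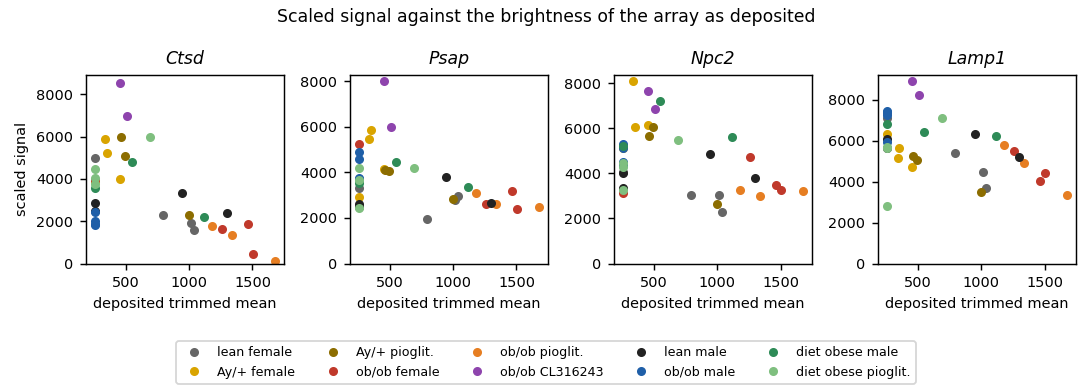
Scaled signal of Ctsd, Psap, Npc2 and Lamp1 on each array (points, coloured by group) against the 2% trimmed mean of that array as deposited. Ctsd runs from 124 on the brightest array, at 1680.3, to 8511 on a CL316243 array.

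CL316243 and pioglitazone were also compared directly in ob/ob females (n = 2 and 3), at 3 and 10 mg/kg/day, so the doses differ. All pioglitazone arrays were scanned on 1 day and both CL316243 arrays on another, so drug and scan day cannot be told apart. Ctsd, Psap and Npc2 were higher with CL316243 and Gpr137b, Asah1 and Gusb lower, 3 members in each direction, where 2.91% of all probe sets were called higher and 4.69% lower. Ctsd read 124, 1788 and 1368 with pioglitazone and 8511 and 6985 with CL316243 (log2 difference 3.43, 95% interval 2.07 to 4.79, adjusted p = 0.00112). Gpr137b read 1168, 669 and 515 with pioglitazone and 174 and 229.9 with CL316243 (log2 difference -1.77, 95% interval -2.62 to -0.92, adjusted p = 0.00652). Asah1 read 1166, 756 and 701 with pioglitazone and 271 and 278 with CL316243, and the log2 difference was -1.56, adjusted p = 0.0216. With pioglitazone Psap read 2477, 3106 and 2603 (log2 difference 1.34, adjusted p = 0.00607), Npc2 3213, 3269 and 2997 (1.19, adjusted p = 0.00906) and Gusb 1163, 696 and 644 (-1.35, adjusted p = 0.0377). None of these 6 genes overlapped between the drugs, but they were named because they were called. The share of all probe sets without overlap was not counted. The 3 pioglitazone arrays were brighter as deposited than the 2 CL316243 arrays. With brightness as a covariate Gusb (-1.27, adjusted p = 0.0958) and Asah1 (-1.10, adjusted p = 0.131) were no longer called, and the other 4 were. In the main fit the dimmest probe set of Psap was lower with CL316243 (-3.33, adjusted p = 0.000316), and its second was not called. The count was 11 without ob/ob female 4 or on earlier arrays, 13 without the doubted arrays, 3 with quantile normalization, without pioglitazone-treated array 1 or without CL316243 array 2, and 1 without CL316243 array 1. Of the 18 macrophage markers, 0 were called in limma in either CL316243 comparison (5 and 2 had an unadjusted p under 0.05), and their summed signal was 21929.7 to 23089 with CL316243, beside 17794 to 28378 untreated and 17809 to 26269.6 with pioglitazone.

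Further genes of the lysosome, 96 by symbol of which 58 were measured, were counted in the same fit. In ob/ob females 24 rose (41.4%, against 10.3% of all probe sets) and 2 fell (3.45%, against 14.0%). In ob/ob males 12 rose (20.7%, against 5.62%) and 2 fell (3.45%, against 4.96%). In Ay/+ females 9 rose (15.5%, against 6.26%) and 7 fell (12.1%, against 11.5%, a share near the background). On the diet 1 rose and 1 fell (1.72% each, against 1.22% and 0.628%), also near it. Of the proton pump, 10 of 15 measured subunits rose in ob/ob females and 7 of 15 in ob/ob males, and 0 fell in either. The highest log2 fold changes of pump subunits were those of Atp6v1b2 (1.89, adjusted p = 7.72e-06) in females and of Tcirg1, a membrane subunit (1.94, adjusted p = 1.43e-05), in males. In Ay/+ females 3 pump subunits rose and 4 fell, led by Atp6v0b (0.96) and Atp6v1g1 (-1.18). With CL316243 in ob/ob females 3 fell, Atp6ap2 (-1.57), Atp6v1c1 (-1.54) and Atp6v1d (-0.80), and 0 rose.

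Ifi30, the lysosomal thiol reductase of antigen processing, rose in all 4 obesity comparisons, with log2 fold changes of 2.78 in ob/ob females, 1.56 in Ay/+ females, 2.95 in ob/ob males and 1.85 on the diet. Slc11a1, the metal transporter of phagosomes, had log2 fold changes of 3.00 in ob/ob females, 1.05 in Ay/+ females and 2.34 in ob/ob males. The regulators Tfeb and Mitf were not called in these 4 comparisons. Tfeb had log2 fold changes from 0.069 to 0.56 and Mitf from -0.18 to 0.80. Rab7, the GTPase of late endosomes, rose in ob/ob females (1.22) and fell with CL316243 (-1.40).

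Of 14 listed inhibitors of cathepsins and related serpins 6 were measured. Cstb, the cytosolic cysteine protease inhibitor stefin B, rose in ob/ob females (0.67), ob/ob males (1.35) and diet-induced obese males (1.25). Serpinb6a rose in ob/ob females (1.71) and males (1.21). Serpina3n, a secreted serine protease inhibitor of the acute phase, rose in ob/ob (2.69) and Ay/+ females (2.83). It fell with pioglitazone in Ay/+ females (-2.65, adjusted p = 4.18e-10), ob/ob females (-1.69, adjusted p = 7.78e-06) and diet-induced obese males (-2.95, adjusted p = 4.18e-11). Of the 58 further lysosomal genes, 0 were called in limma in any comparison of pioglitazone with no treatment, and 6, 3 and 6 had an unadjusted p under 0.05 in Ay/+, ob/ob and diet-induced obese mice.

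Several members have further probe sets, and some of these did not follow the brightest one. Of the 4 probe sets of Ctsb, the 3 brightest rose in ob/ob females, and the dimmest read -0.0067, adjusted p = 0.993. In ob/ob males the second and the third rose by more than the brightest (1.57, adjusted p = 0.000154, and 2.34, adjusted p = 9.31e-07, beside 0.93). Both were also higher in ob/ob than in Ay/+ females (1.77, adjusted p = 7.78e-05, and 1.86, adjusted p = 9.5e-05). The third rose on the diet (1.52, adjusted p = 0.0068). In neither of these comparisons was the brightest probe set of Ctsb called. For Lamp2, not called by its brightest probe set in ob/ob mice, the other rose in females (0.96, adjusted p = 0.00933) and males (1.36, adjusted p = 0.000443). The dimmer probe set of Hexa fell in ob/ob females (-0.93, adjusted p = 0.0319) while the brighter one rose, and that of Man2b1 gave -0.85, adjusted p = 0.0765. The probe sets of Psap disagreed: with CL316243 the brightest rose, the second was not called (0.31, adjusted p = 0.621) and the dimmest fell (-2.74, adjusted p = 0.0048). The dimmest rose in ob/ob females (2.57, adjusted p = 6.02e-05) where the brightest was not called.

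Markers of other cell types were read on the same arrays. Of 7 neutrophil markers, 1 rose in ob/ob females, S100a8 (2.85), 0 fell, and 2 of the 7 had a positive log2 fold change (median -0.24). With pioglitazone 2, 1 and 1 of the 7 fell in Ay/+, ob/ob and diet-induced obese mice and 0 rose, S100a8 among them in each (-1.69, -1.84 and -2.25). Mast cell Cma1 rose in ob/ob females (1.08) and, with Cpa3, in ob/ob males (1.73 and 1.51). Endothelial markers fell in 6 of 8 cases in ob/ob males and 2 of 8 in ob/ob females, and fibroblast markers rose in 3 of 6 cases in ob/ob males and 1 of 6 in ob/ob females. Of 10 adipocyte markers, 1 rose and 2 fell in ob/ob females. The male tract markers summed to 14592 on ob/ob male 1 and to 237, 186 and 218 on the others of that group. They summed to 1892 on pioglitazone-treated diet-induced obese male 2 and to 512 or less on all further arrays. Among the members, ob/ob male 1 was the lowest of its group in Acp2, Gpr137b, Lamp1 and Tpp1. Skeletal muscle markers fell in 2 of 5 cases in ob/ob females and summed to 1018 to 2938 in lean and 1077 to 4722 in ob/ob females. The part of these cells in the lysosomal values was not tested.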

How the data were processed

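Gene expression was measured in perigonadal fat on 35 one-colour Affymetrix MG-U74Av2 arrays, 1 per sample. The deposited values are intensity on a linear scale, MAS5 signals per probe set per the submitters' processing notes; the version, the scaling target and any filter are not given in the sources used here. The other deposited files, which hold text settings of the array software, were used to find batches. Arrays were brought to a common 2% trimmed mean, 250, which cannot remove differences in background or saturation, and log2(signal + 23) was taken, where 23 is the 25th percentile of scaled signals. Groups came from the labels, and no sample was left out.

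All 12422 probe sets that are not controls (12488 less 66) were fitted with limma 3.58.1 in R 4.3.3, with 10 group means, a mean-variance trend and Benjamini-Hochberg adjustment, and 13 comparisons were made. Genes were named by the platform annotation (10833 probe sets with 1 symbol, 396 with several, 1193 with none), with the brightest probe set per gene. Values were given for up to 8 called members per direction with the largest change, with values per array for up to 4 of these; members with small changes were added after their values were seen. The members, lists and doubted arrays were chosen with earlier results of these data known. The scripts were tested on simulated data. The alternatives were quantile normalization, a pseudocount of 1, a filter at the median signal, the dimmest probe set, the batch or scan day as a block, either batch alone, leaving out the doubted arrays or each array in turn, and the replicate number as a block. Brightness as a covariate was added after the data were seen. The number of arrays, 2 to 4 per group, limits the precision. Tables and figures were made in Python 3.11.15 (matplotlib 3.10.9, with numpy 2.4.6 and pandas 2.3.3).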

Additional observations from a re-analysis of the deposited data

Results flagged for a closer look

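Single arrays stood apart from the rest of their group by Dixon's criterion in 15 of 192 tests (7.81%), where chance gives about 1 in 20. In ob/ob female 4 the signal was low for 5 members: Asah1 was at 181 (895 to 1052 on the others), Ctsz at 447 (1075 to 1148), Gpr137b at 227 (658 to 801), Gusb at 373 (949 to 1123) and Lgmn at 528 (1384 to 1578). In ob/ob male 1, 4 members were low and 1 was high. Acp2 was at 138 (252 to 257), Gpr137b at 439 (645 to 682), Lamp1 at 5937 (7259 to 7441), Tpp1 at 1968 (2443 to 2541) and Glb1, the high one, at 504 (417 to 429). Man2b1 was low in lean female 1, at 328 (387 to 399), and high in Ay/+ female 1, at 1238 (728 to 788). Hexa was low in lean male 1, at 378 (567 to 592). In pioglitazone-treated diet-induced obese male 3, Ctss was high, at 6599.6 (5508 to 5597), and Lipa low, at 459 (976 to 1122).

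The effect of ob/ob differed between the sexes in 3 members by the direct test of that difference in limma. The log2 fold change in males minus that in females was -1.38, adjusted p = 0.0172 for Acp5, -0.90, adjusted p = 0.0448 for Ctsl and -1.50, adjusted p = 0.00643 for Man2b1, with 4 arrays in each of the 4 groups.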

How the results depend on the processing

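Counts of called members moved by over 1.5 times under some alternatives. On later arrays only, where each untreated female group has 1 array and the spread comes from other groups, they were 4 (ob/ob against lean females), 2 (Ay/+ against lean females), 1 (ob/ob against Ay/+), 2 (lean males against females) and 1 (sex difference of the ob/ob effect). With scan day as a random block, at an estimated correlation of 0.2045, they were 5 (lean males against females), 1 (sex difference) and 0 (CL316243). Without the 4 doubted arrays they were 16 (lean males against females), 7 (sex difference), 1 (pioglitazone on the diet), 14 (CL316243) and 13 (CL316243 against pioglitazone). On earlier arrays only they were 5 (pioglitazone in Ay/+), 14 (CL316243) and 11 (CL316243 against pioglitazone), with quantile normalization 1 (CL316243) and 3 (CL316243 against pioglitazone), and with brightness as a covariate 1 (sex difference). Lean males against females and CL316243 against pioglitazone lost none of their own arrays with the doubted ones, so those counts moved through the shared spread. The cause of the other moves was not tested, beyond the smaller number of arrays in a subset. A comparison that lost a group in a subset of arrays gave no value there. Leaving out 1 array at a time, the counts ran from 20 to 26 (ob/ob females), 11 to 13 (Ay/+), 20 to 26 (ob/ob against Ay/+), 15 to 18 (ob/ob males), 4 to 8 (diet), 5 to 13 (lean males against females), 1 to 5 (sex difference), 0 to 4 (pioglitazone in Ay/+), 0 to 0 (pioglitazone in ob/ob, pioglitazone on the diet, and the difference between the pioglitazone effects in ob/ob and Ay/+), 0 to 12 (CL316243) and 1 to 11 (CL316243 against pioglitazone). The replicate numbers of the labels do not pair the samples: over 141 same-numbered pairs the correlation of deviations from the group means had a median of 0.0006 (-0.399 to 0.333), and 6 of 35 arrays were closest to their own number. With the replicate block the count for pioglitazone in Ay/+ was 1, and no other count moved by over 1.5 times. Of 107 called log2 fold changes of members, 93 remained called in the same direction with quantile normalization, 104 with the batch as a block, 83 with scan day as a block, 106 without the doubted arrays and 96 with brightness as a covariate. Direction reversed in 30 cases. With the dimmest probe set the log2 fold changes were, in ob/ob against lean females, -0.0067 for Ctsb, -0.93 for Hexa, -0.39 for Glb1 and -0.85 for Man2b1; in Ay/+ against lean females -0.16 for Ctsb and -0.81 for Hexa; in ob/ob against Ay/+ -0.12 for Hexa and -0.997 for Man2b1. In lean males against females they were -1.20 for Hexa and -0.98 for Man2b1, in the sex difference 1.27 for Man2b1, and for Psap -2.74 with CL316243 and -3.33 for CL316243 against pioglitazone. On later arrays only they were, in ob/ob against lean females, -0.0964 for Ctsc, 0.22 for Neu1 and -0.54 for Asah1, and in Ay/+ against lean females -0.10 for Ctsb, 0.37 for Lamp2 and -0.18 for Psap. In ob/ob against Ay/+ on those arrays they were -0.13 for Ctsa, -0.0847 for Ctsc, 0.0337 for Ctsd, -0.16 for Ctsh, -0.46 for Ctsz, -0.82 for Lamp2, -0.0669 for Hexa, -0.12 for Man2b1, -0.13 for Asah1 and -0.0646 for Scarb2, and in the sex difference 0.22 for Acp5.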
